A study of Mus musculus with 62 samples.

Results

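The 10 genes described here carry out calcium release and reuptake in the heart muscle cell: Casq1, Casq2, Ryr2, Atp2a2, Pln, Sln, Cacna1c, Slc8a1, Trdn and Jph2. They were taken by symbol from a deposited table of 47643 gene symbols, and all 10 were found. The table holds RNA sequencing of hearts from female mice, 2 months old per the labels, collected 2, 4, 6 or 8 weeks after injection. The CAC arm received cachectic melanoma cells, the NCAC arm non-cachectic melanoma cells and the Con arm a mock injection. The design text describes the animals as nude mice while the sample labels give the strain as C57BL6/J, and the 2 descriptions could not be reconciled here. The extraction protocol also refers to LLC cells and a time of 3 weeks, which match no sample of the series. Cachexia and the cell line cannot be told apart, since CAC and NCAC mice received different melanoma cells. CAC had 5 libraries at weeks 2, 4 and 6 and 7 at week 8. NCAC had 5 libraries at each week, and Con had 5 at each week except week 4, where 1 of its 5 was left out (replicate 2) and 4 remained. Each library has a heart number of its own in its title.

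With each heartbeat, calcium entering through the L-type channel (pore subunit Cacna1c) opens the ryanodine receptor (Ryr2), which releases stored calcium from the sarcoplasmic reticulum into the cytoplasm and starts contraction. Inside the store, calsequestrin (Casq2, the cardiac form, and Casq1, the form best known from skeletal muscle) binds calcium, and triadin (Trdn) anchors calsequestrin to the receptor, while junctophilin (Jph2) holds the surface membrane and the store together at the junction where release occurs. The muscle relaxes when the pump SERCA2a (Atp2a2), held back by phospholamban (Pln) and, chiefly in atria, by sarcolipin (Sln), returns calcium to the store and the sodium-calcium exchanger (Slc8a1) moves the rest out of the cell.

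Casq1, Casq2 and Jph2 are the members that were lower in CAC hearts at week 8 under every scaling used, so the 250 bases before their start sites are shown, 5′ to 3′ on the gene's strand, from RefSeq's promoter table (GRCm38.p6). Of the 10 members 7 had an entry in that table; Atp2a2, Sln and Trdn did not. Capitals mark E-box matches (CANNTG, which reads the same on both strands). Casq1 lies at chr1:172219896-172220145 (minus strand), Casq2 at chr3:102086165-102086414 (plus strand) and Jph2, at the first of its 2 listed start sites, at chr2:163397994-163398243 (minus strand).
Casq1: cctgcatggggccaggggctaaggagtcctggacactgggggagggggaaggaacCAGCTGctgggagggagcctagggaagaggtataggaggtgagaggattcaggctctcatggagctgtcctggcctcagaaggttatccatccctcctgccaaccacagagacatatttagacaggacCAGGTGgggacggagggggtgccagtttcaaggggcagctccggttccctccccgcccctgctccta
Casq2: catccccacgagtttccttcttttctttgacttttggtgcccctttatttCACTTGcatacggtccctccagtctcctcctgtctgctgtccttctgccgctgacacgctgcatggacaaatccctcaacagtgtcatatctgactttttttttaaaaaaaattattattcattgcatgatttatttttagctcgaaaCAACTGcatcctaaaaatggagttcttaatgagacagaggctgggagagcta
Jph2: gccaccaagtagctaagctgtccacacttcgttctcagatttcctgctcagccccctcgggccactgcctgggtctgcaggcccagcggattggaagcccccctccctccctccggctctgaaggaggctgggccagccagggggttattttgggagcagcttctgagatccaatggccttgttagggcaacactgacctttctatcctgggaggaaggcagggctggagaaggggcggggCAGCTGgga
The windows hold 2 E-box matches for Casq1, 2 for Casq2 and 1 for Jph2, and 66.2% of all 32851 promoters of this length hold at least 1. The other motifs searched, on both strands, were CATTCC (12.6% of all promoters), TATAAA (12.4%) and TTCNNNGAA (7.02%). None of these letters is in the 3 windows.

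Values are in TPM, a length-corrected share of each library, and the read depth behind them is unknown. Mitochondrially encoded genes took 49.3 to 61.1% of the TPM in the 61 libraries used, against 89.1% in the left-out Con library, where the 10 members summed to 571 TPM. Elsewhere the members summed to between 5714 and 10462 TPM, the lowest being Con week 2 replicate 1, which stands apart below. The fit was limma on log2(TPM + 1) over the 12541 genes that reached 1 TPM in 5 or more libraries, with Benjamini-Hochberg adjustment within each comparison and a threshold of 0.05 ("called"). The median gene was 0.19 higher in CAC than in Con at week 8 on the log2 scale and 0.21 higher at week 6, against NCAC 0.24 and 0.19 higher. Values are therefore also given after rescaling every library by its median ratio over 10432 genes ("rescaled"), which measures a change relative to the typical gene.

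The members span a wide range of abundance. Median levels over the 61 libraries were 4365 TPM for Pln and 3641 TPM for Atp2a2, then 447 TPM for Casq2, 208 TPM for Jph2, 179 TPM for Ryr2 and 106 TPM for Slc8a1. Trdn followed at 77.4 TPM, Cacna1c at 43.8 TPM and Casq1 at 16.1 TPM. Sln reached at most 1.04 TPM and was listed at 0 in 30 of the 61 libraries, so it failed the filter and 9 members were tested. The atrial markers Myl7 (median 0.149 TPM, listed at 0 in 14 libraries) and Myl4 (0.571 TPM) were near 0 in the same libraries, while Nppa, an atrial gene that ventricles also express, lay between 20.4 and 2192 TPM. The rest of the 10-gene atrial list was mixed. Kcnj3 lay between 11.3 and 27.0 TPM, Stard10 between 7.32 and 14.8 TPM and Dkk3 between 1.01 and 8.00 TPM. Mybphl, Bmp10, Fgf12 and Nr2f1 reached at most 0.932, 0.429, 0.782 and 1.10 TPM. Of the 12 skeletal muscle markers none exceeded 5.41 TPM in any library, and their summed level averaged 5.51 ± 1.03 TPM in CAC and 6.46 ± 0.874 TPM in Con at week 8 (SD, n = 7 and 5). Without Cacna1s, which was lower in CAC, the other 11 summed to 3.35 to 5.28 TPM in CAC and 1.76 to 2.40 TPM in Con, without overlap, and their part in the member results was not tested. The skeletal-muscle paralogs Ryr1 and Atp2a1 averaged 0.00829 and 0.146 TPM in CAC hearts at week 8, and 0.00891 and 0.154 TPM in Con hearts, so Casq1 was detected without them.

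**Figure D1:**
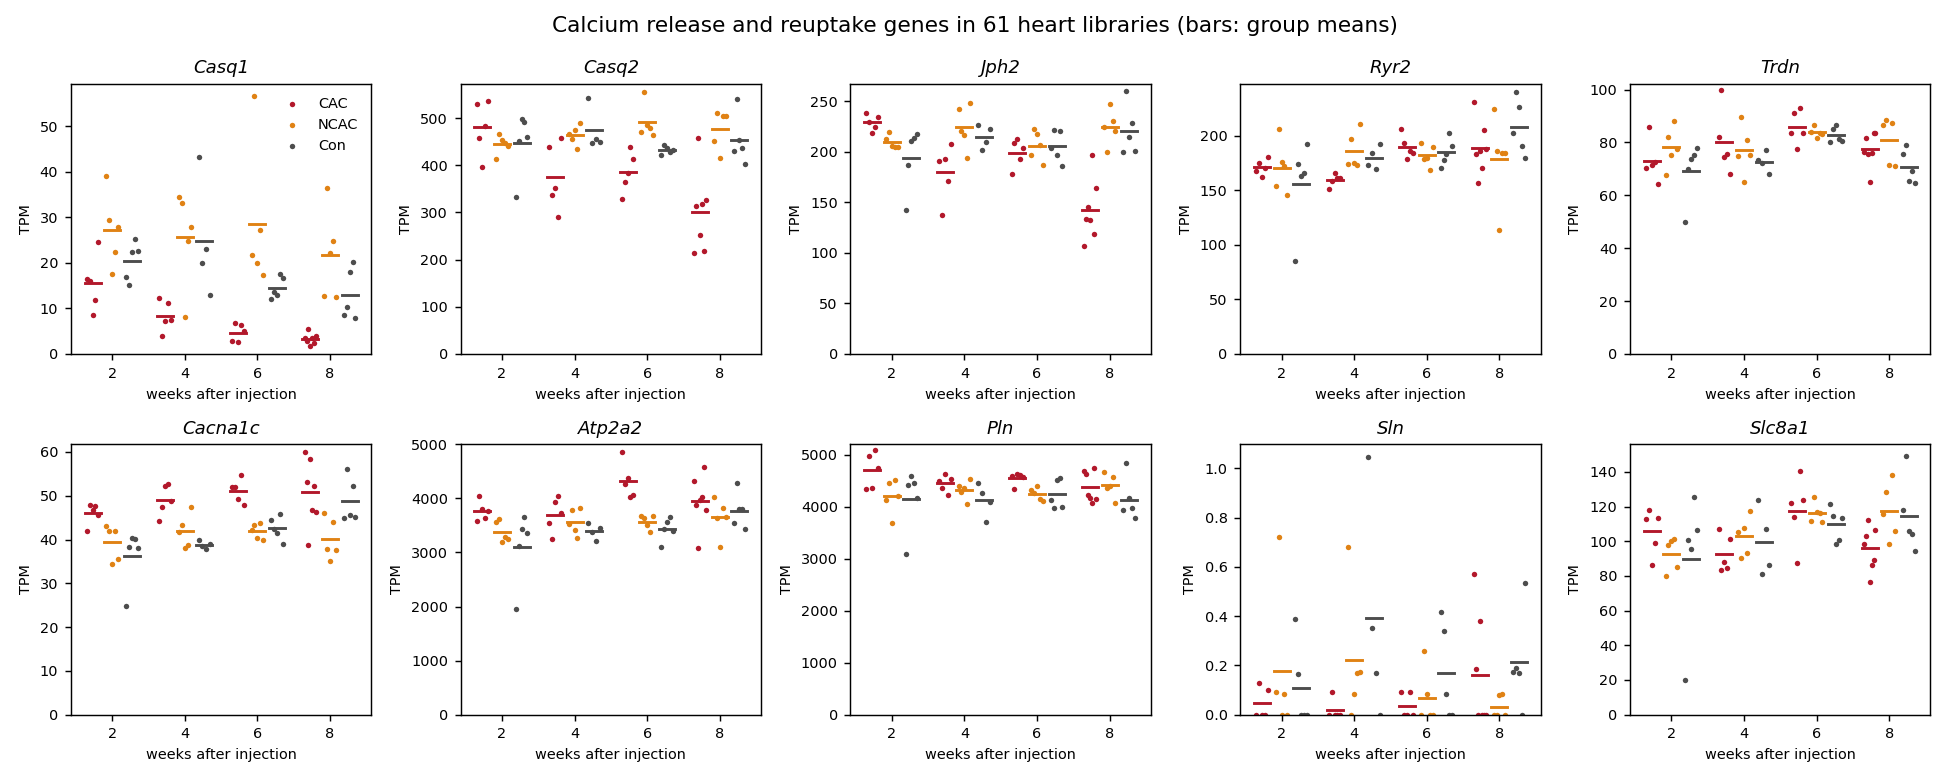
TPM of the 10 members by week after injection; each point is 1 library, bars are group means, and CAC, NCAC and Con stand side by side at each week. Casq1 in CAC averages 15.5, 8.41, 4.69 and 3.32 TPM at weeks 2, 4, 6 and 8, while Pln, Atp2a2, Ryr2 and Trdn overlap between arms at week 8.

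Among the store proteins, Casq1 had the largest fold change of the 9 tested members in both CAC comparisons at weeks 4, 6 and 8. At week 8 its level ran from 1.76 TPM through a median of 3.48 TPM to 5.49 TPM in the 7 CAC hearts. The 5 NCAC hearts had 12.8, 36.5, 22.2, 24.8 and 12.6 TPM, and the 5 Con hearts had 8.54, 10.2, 18.0, 20.3 and 7.93 TPM. Every CAC heart lay below every NCAC and every Con heart. The log2 fold change was -1.65 ± 0.31 (SE) for CAC over Con (limma adjusted p = 9.92e-06) and -2.34 ± 0.31 for CAC over NCAC (limma adjusted p = 7.21e-09). Rescaled, the log2 fold changes were -1.80 and -2.54.

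Casq1 stood lower at each later week in CAC hearts, at 15.5 ± 6.04, 8.41 ± 3.42, 4.69 ± 1.90 and 3.32 ± 1.21 TPM at weeks 2, 4, 6 and 8 (SD, n = 5, 5, 5 and 7). In NCAC hearts it was 27.3 ± 8.18, 25.7 ± 10.6, 28.6 ± 16.1 and 21.8 ± 9.88 TPM (n = 5 each). In Con hearts it was 20.4 ± 4.25, 24.8 ± 13.0, 14.6 ± 2.44 and 13.0 ± 5.73 TPM (n = 5, 4, 5 and 5). The difference from Con was not called at week 2 (log2 -0.43 ± 0.33, limma adjusted p = 0.442) and was called at week 4 (-1.42 ± 0.35, limma adjusted p = 0.00425) and week 6 (-1.51 ± 0.33, limma adjusted p = 0.000166), and rescaled the values were -1.51 and -1.71, both called. Within CAC, week 8 was lower than week 2 by a log2 change of -1.91 ± 0.31 (limma adjusted p = 1.22e-06), and within Con the same contrast was -0.69 ± 0.33 (limma adjusted p = 0.277). The growth of the CAC minus Con difference between weeks 2 and 8 was -1.22 ± 0.45 (limma adjusted p = 0.038), a call that ended when 1 of 10 of the 22 libraries was left out (adjusted p = 0.0537 to 0.0938). Those libraries were CAC week 2 replicates 1, 2 and 5, CAC week 8 replicates 2, 4 and 6, Con week 2 replicates 1 and 2, and Con week 8 replicates 3 and 4. With no filter on low values the limma adjusted p was 0.0655.

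Casq2, the main calcium buffer of the cardiac store, fell at week 8. CAC hearts ran from 214 TPM through a median of 314 TPM to 458 TPM. NCAC hearts had 451, 511, 415, 504 and 505 TPM, and Con hearts had 431, 541, 455, 437 and 403 TPM. In CAC only replicate 3, at 458 TPM, reached the range of the other arms; the remaining 6 hearts lay below it. The log2 fold change was -0.63 ± 0.11 for CAC over Con (limma adjusted p = 5.97e-06) and -0.71 ± 0.11 for CAC over NCAC (limma adjusted p = 6.04e-07), and rescaled -0.84 and -0.97. At week 6 Casq2 was called lower than in NCAC (386 ± 42.7 TPM in CAC, 491 ± 37.5 TPM in NCAC; SD, n = 5 each; log2 -0.35 ± 0.12, limma adjusted p = 0.0148, and 0.0578 without CAC replicate 1) and not against Con (-0.17 ± 0.12, limma adjusted p = 0.238; rescaled -0.41 ± 0.13, adjusted p = 0.00996).

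Jph2, the junction's structural link, behaved like Casq2 at week 8. The 7 CAC hearts ran from 107 TPM through a median of 134 TPM to 197 TPM. NCAC hearts had 225, 200, 247, 230 and 220 TPM, and Con hearts had 200, 260, 215, 228 and 201 TPM. No CAC heart reached either range. The log2 fold change was -0.65 ± 0.10 for CAC over Con (limma adjusted p = 1.46e-07) and -0.67 ± 0.10 for CAC over NCAC (limma adjusted p = 5.07e-08), and rescaled -0.86 and -0.94. With the left-out Con library kept in the fit, the limma adjusted p at week 8 against Con was 0.0693 for Casq2 and 0.0708 for Jph2, and against NCAC it was 0.0512 for Jph2. At week 4 Jph2 was also lower in CAC than in NCAC (180 ± 27.1 TPM in CAC, 224 ± 21.8 TPM in NCAC; SD, n = 5 each; log2 -0.33 ± 0.10, limma adjusted p = 0.0233), and that call ended without CAC week 4 replicate 2 or 4 or NCAC week 4 replicate 1 or 5 (limma adjusted p = 0.052 to 0.155), with only the compared groups fitted (0.0695) and with the left-out Con library kept (0.741). In the week 4 Con hearts Jph2 averaged 215 ± 11.5 TPM (SD, n = 4). The week 4 difference of CAC from Con was not called as deposited, and rescaled it was called lower (-0.38, limma adjusted p = 0.0113). At week 6 the arms overlapped (199 ± 14.2 TPM in CAC hearts, 206 ± 15.3 TPM in Con hearts, log2 -0.05 ± 0.10, limma adjusted p = 0.705), and only the rescaled value was called (-0.29 ± 0.10, limma adjusted p = 0.0175).

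The release channel and its anchor were not called at week 8 as deposited. Ryr2, the release channel, averaged 189 ± 23.8 TPM in CAC, 179 ± 39.97 TPM in NCAC and 208 ± 25.0 TPM in Con at week 8 (SD, n = 7, 5 and 5), with overlapping ranges. Its log2 fold change was -0.14 ± 0.12 for CAC over Con (limma adjusted p = 0.303) and -0.35 ± 0.10 after rescaling (limma adjusted p = 0.00226). Trdn, which ties calsequestrin to the channel, averaged 77.4 ± 6.51 TPM in CAC and 70.8 ± 6.24 TPM in Con (log2 0.13 ± 0.08, limma adjusted p = 0.194), and rescaled it was -0.08 ± 0.08 (limma adjusted p = 0.421). Against NCAC, where it averaged 81.0 ± 8.97 TPM, its rescaled value was called lower (-0.32 ± 0.08, limma adjusted p = 0.0011), and the rescaled Ryr2 value was called lower than NCAC at week 4 (-0.31 ± 0.11, limma adjusted p = 0.0345).

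Cacna1c, the entry channel, was the only member called higher in CAC than in Con at weeks 2 and 4. At week 4 CAC hearts had 44.3, 47.5, 52.3, 52.7 and 48.8 TPM, against 39.9, 38.6, 37.9 and 39.0 TPM in the 4 Con hearts. The ranges did not overlap (log2 0.33 ± 0.10, limma adjusted p = 0.0191; rescaled 0.23 ± 0.07, adjusted p = 0.0326), although the call ended without CAC replicate 4 (limma adjusted p = 0.0501) or Con replicate 4 (0.0596), and with mitochondrially encoded and haemoglobin genes left out (0.056). At week 2 it averaged 46.0 ± 2.44 TPM in CAC and 36.3 ± 6.55 TPM in Con, where replicate 1 had 24.7 TPM (log2 0.35 ± 0.09, limma adjusted p = 0.0339; rescaled 0.24 ± 0.07, adjusted p = 0.102); the call ended without that Con library (limma adjusted p = 0.268) and without each of CAC replicates 2 to 5. At week 6 it averaged 51.2 ± 2.62 TPM in CAC and 42.6 ± 2.67 TPM in Con, without overlap (log2 0.26 ± 0.09, limma adjusted p = 0.0165; rescaled 0.02 ± 0.07, adjusted p = 0.84), and without Con replicate 5 the adjusted p was 0.0501. At week 8 it averaged 50.8 ± 7.49 TPM in CAC, 40.1 ± 4.70 TPM in NCAC and 48.8 ± 5.07 TPM in Con. Against Con the log2 difference was 0.05 ± 0.09 (limma adjusted p = 0.638), and rescaled it was called lower (-0.16 ± 0.07, limma adjusted p = 0.0366). CAC was then higher than NCAC (log2 0.33 ± 0.09, limma adjusted p = 0.00095) but rescaling removed that call (0.07 ± 0.07, limma adjusted p = 0.388).

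Atp2a2 and Pln were the most abundant members in every arm. Atp2a2, the store's pump, had 4855, 4267, 4375, 4020 and 4065 TPM in CAC hearts at week 6. NCAC hearts had 3672, 3632, 3515, 3373 and 3668 TPM, and Con hearts 3107, 3441, 3571, 3662 and 3404 TPM. CAC lay above both other arms without overlap (CAC over Con log2 0.33 ± 0.09, limma adjusted p = 0.00282), but the rescaled difference was 0.08 ± 0.07 (limma adjusted p = 0.378). At week 8 Atp2a2 averaged 3948 ± 468 TPM in the CAC hearts and 3774 ± 330 TPM in the Con hearts, with a log2 difference of 0.06 ± 0.09 (limma adjusted p = 0.561) that turned to -0.15 ± 0.07 when rescaled (limma adjusted p = 0.0499).

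Pln, the pump's brake, averaged 4384 ± 289 TPM in CAC, 4416 ± 229 TPM in NCAC and 4138 ± 414 TPM in Con at week 8. Against Con it was not called under either scaling (log2 0.09 ± 0.06, limma adjusted p = 0.236; rescaled -0.13 ± 0.06, adjusted p = 0.0619), and against NCAC only the rescaled value was (-0.28 ± 0.06, limma adjusted p = 6.98e-05). Sln was listed at 0 in 4 of 7 CAC hearts and reached 0.569 TPM there at week 8, and it was listed at 0 in 1 of 5 Con hearts and reached 0.533 TPM. The exchanger Slc8a1 averaged 96.0 ± 12.5 TPM in CAC, 117 ± 16.1 TPM in NCAC and 114 ± 21.3 TPM in Con at week 8. Its log2 difference from Con was -0.24 ± 0.20 (limma adjusted p = 0.297) and -0.45 ± 0.19 rescaled (limma adjusted p = 0.0461).

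Counted over the 9 tested members, CAC against Con gave 1 higher at week 2, where 1.83% of all genes were called higher and 0.00797% lower. At week 4 it gave 1 higher (12.7% of all genes) and 1 lower (2.36%), at week 6 it gave 2 higher (50.5%) and 1 lower (5.25%), and at week 8 none higher (50.8%) and 3 lower (9.98%). Against NCAC none was called at week 2 (0.59% of all genes). At week 4 none was higher (13.7%) and 2 were lower (2.84%), at week 6 2 were higher (47.7%) and 2 lower (6.85%), and at week 8 1 was higher (57.4%) and 3 lower (8.76%). The members' median log2 fold change for CAC over Con at week 8 was -0.14, against 0.19 for all genes tested. All comparisons with Con share the Con libraries of their week, and all CAC comparisons share the CAC libraries.

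After rescaling, the share of members called lower was larger, and so was that of all genes. CAC against Con gave 3 lower at week 4 (6.96% of all genes), 3 at week 6 (17.9%) and 7 at week 8 (24.8%), and against NCAC 4 (8.04%), 3 (19.7%) and 7 (24.3%). The higher call of Cacna1c at week 4 was the only higher member call against Con that stayed (8.44%). Trdn and Pln were the tested members not called lower than Con at week 8, and Ryr2 and Cacna1c those not called lower than NCAC. Without Con week 2 replicate 1 the rescaled fit called 8 members lower than Con at week 8 (25.4% of all genes), and without CAC week 8 replicate 3 it called 6 (26.5%).

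**Figure D2:**
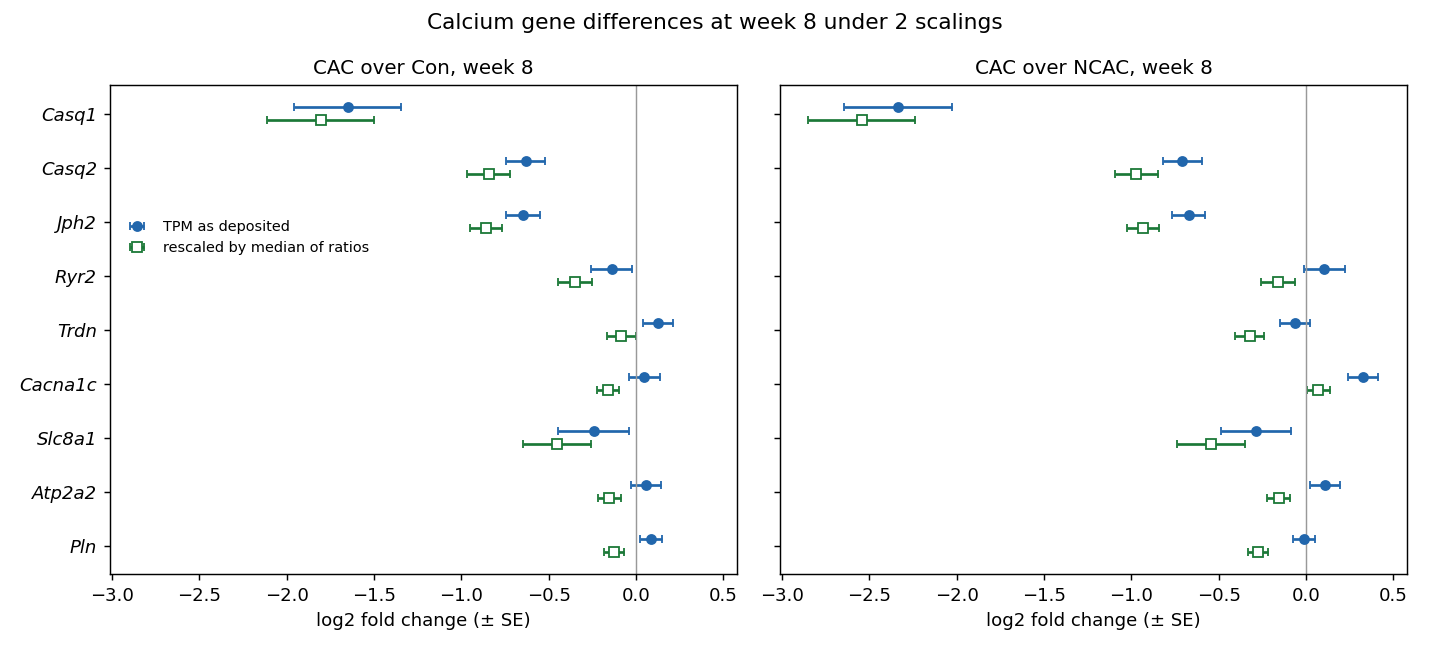
Log2 fold changes (points) with SE (bars) of the 9 tested members at week 8, CAC over Con on the left and CAC over NCAC on the right, from TPM as deposited (filled circles) and after median-of-ratios rescaling (open squares). Casq1, Casq2 and Jph2 lie below 0 under both scalings, at -1.65, -0.63 and -0.65 against Con as deposited, while Atp2a2, Pln, Cacna1c and Trdn change side against Con.

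The growth of the CAC minus Con difference with time was tested directly. Between weeks 2 and 8 it was called for 3 members, all lower (7.45% of all genes were called lower): Casq1, Casq2 (log2 -0.74 ± 0.17, limma adjusted p = 0.000849) and Jph2 (-0.90 ± 0.14, limma adjusted p = 6.59e-06). Rescaled, 7 were called lower (14.8%). Between weeks 2 and 4 no member was called (0% of all genes in limma, and 834 genes at an unadjusted p under 0.05), and between weeks 2 and 6 none was (13.1%). Con week 2 replicate 1 enters each of these contrasts. Without it the Casq1 call between weeks 2 and 8 ended (limma adjusted p = 0.0587), and rescaled 5 members were called lower (13.4% of all genes). Without Con week 2 replicate 4 the deposited values gave 5 lower members, and the share of all genes is not given for that fit. With the left-out Con library kept in the fit the deposited values gave 0 lower members. The share of all genes called lower also fell there, to 1.06% from 7.45%.

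Within an arm, week 8 against week 2 gave 3 lower members in CAC (Casq1, Casq2 and Jph2; 10.1% of all genes) and none in NCAC (0%; 625 genes at an unadjusted p under 0.05). In Con it gave 1 higher member, Cacna1c (0.909%; 48.8 ± 5.07 TPM at week 8 and 36.3 ± 6.55 TPM at week 2; log2 0.43 ± 0.09, limma adjusted p = 0.0169), a call lost without Con week 2 replicate 1 (limma adjusted p = 0.153).

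NCAC against Con gave no called member at any week as deposited (0, 0, 0 and 0.71% of all genes at weeks 2, 4, 6 and 8; 1003, 103, 213 and 1942 genes at an unadjusted p under 0.05 in limma). Casq1 averaged higher in NCAC than in Con at week 8, with 21.8 ± 9.88 TPM and 13.0 ± 5.73 TPM, without passing the test (log2 0.69 ± 0.33, limma adjusted p = 0.308). Rescaled, Cacna1c was called lower in NCAC at week 8 (-0.23 ± 0.07, limma adjusted p = 0.0417; 1.76% of all genes called lower).

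Some cell type markers also differed between the arms at week 8. In bulk tissue, fewer cells of a type and less RNA per cell cannot be told apart. Of 10 cardiomyocyte markers, CAC against Con at week 8 gave 8 called lower and 1 (Tnnt2) called higher, and their summed level ranged from 28884 to 42803 TPM in CAC and from 40864 to 50661 TPM in Con. All 10 macrophage markers were called higher, with sums of 275 to 670 TPM in CAC and 129 to 182 TPM in Con. Of 7 fibroblast markers 2, Dcn and Pdgfra, were called higher and none lower. In this comparison 50.8% of all genes were called higher and 9.98% lower. The share of fibroblast markers called higher thus lay below that of all genes. Dcn, at a mean of 934 TPM in CAC against 365 TPM in Con, made up most of the list's summed level, with sums of 713 to 1416 TPM in CAC and 526.2 to 658 TPM in Con. CAC week 8 replicate 3, the heart with the highest Casq2 and Casq1 of its group, also had the lowest macrophage sum (275 TPM) and the highest cardiomyocyte sum (42803 TPM) of the 7. The same heart had the highest Slc8a1 (112 TPM) but the lowest Atp2a2 (3083 TPM), Ryr2 (157 TPM) and Cacna1c (38.6 TPM). The part of cell makeup in the member results was not tested.

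Set against the geometric mean of the 10 cardiomyocyte markers in each library, a scaling chosen after the values were seen, Casq1, Casq2 and Jph2 were still lower in CAC at week 8. Their log2 fold changes over Con were -1.41 ± 0.30, -0.32 ± 0.09 and -0.34 ± 0.07 (limma adjusted p = 2.95e-05, 0.000659 and 5.99e-05). On that scale Atp2a2, Pln, Cacna1c and Trdn were called higher, between 0.35 and 0.43, where the median of all genes was 0.46 and 79.7% of all genes were called higher and 3.76% lower.

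Ratios of 2 members within a library do not depend on its scaling, and 6 ratios were compared in 12 contrasts with exact two-sided permutation tests adjusted over 72. The ratio of Casq1 to Casq2 averaged 0.0111 ± 0.00292 in CAC, 0.0455 ± 0.0191 in NCAC and 0.0289 ± 0.0131 in Con at week 8 (SD, n = 7, 5 and 5). It was lower in all 7 CAC hearts than in any NCAC or Con heart, 0.256-fold relative to NCAC and 0.404-fold relative to Con. Both exact permutation p-values were 0.00126, the smallest that 7 against 5 allows (adjusted p = 0.0455), and these were the only 2 of 72 past the threshold. With any 1 library left out the adjusted p lay between 0.0519 and 0.0571, since fewer regroupings raise the smallest p.

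Several other ratio comparisons separated CAC completely from another arm without passing the adjustment. The smallest exact permutation p that 5 against 5 allows is 0.00794, and over the 72 tests it adjusted to 0.0519. Ryr2 to Atp2a2 at week 6 averaged 0.0441 ± 0.00227 in CAC, 0.0510 ± 0.00145 in NCAC and 0.0538 ± 0.00218 in Con, with no overlap of CAC with either (exact permutation p = 0.00794, adjusted 0.0519, n = 5 each). Cacna1c to Ryr2 at week 4 averaged 0.307 ± 0.0135 in CAC, 0.225 ± 0.00861 in NCAC and 0.217 ± 0.0127 in Con (n = 5, 5 and 4). Again CAC overlapped neither arm (exact permutation p = 0.00794 in both, adjusted 0.0519). Casq1 to Casq2 at week 6 was lower in CAC without overlap, 0.214-fold relative to NCAC and 0.340-fold relative to Con (exact permutation p = 0.00794 in both, adjusted 0.0519). Ryr2 to Atp2a2 at week 4 also overlapped neither arm (exact permutation adjusted p = 0.0519 against NCAC and 0.0816 against Con). Pln to Atp2a2 lay lower in each CAC heart than in any Con heart at week 6 (0.856-fold, exact permutation p = 0.00794, adjusted 0.0519) and not at week 8 (1.02-fold, exact permutation p = 0.794). With NCAC it overlapped at week 6 (0.887-fold, exact permutation p = 0.0238, adjusted 0.0952). Jph2 to Ryr2 at week 8 was 0.776 ± 0.230 in CAC, 1.34 ± 0.475 in NCAC and 1.07 ± 0.0985 in Con, with overlap (exact permutation adjusted p = 0.0519 against NCAC and 0.109 against Con).

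**Figure D3:**
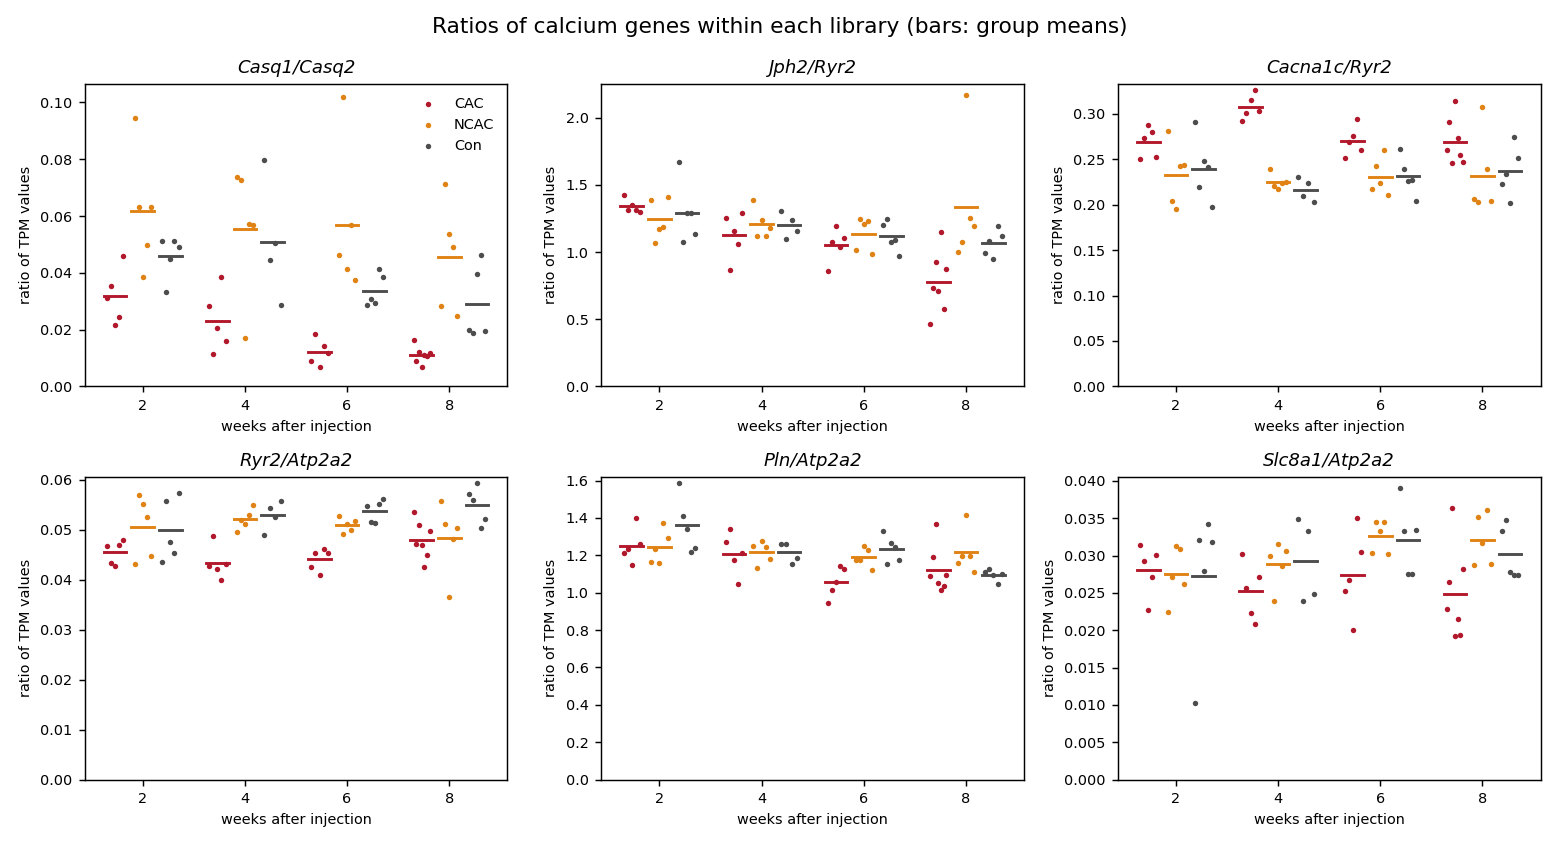
Ratios of TPM values of 2 members within each library by week; each point is 1 library and bars are group means, with CAC, NCAC and Con side by side. Casq1 to Casq2 in CAC averages 0.0111 at week 8, below every NCAC and Con library, and Ryr2 to Atp2a2 in CAC lies below both other arms at week 6.

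Of 100 tested genes in 9 wider calcium handling lists, chosen with earlier results of these data known, CAC against Con at week 8 gave 41 called higher (50.8% of all genes) and 21 called lower (9.98%); rescaled, 22 were higher (27% of all genes) and 34 lower (24.8%). The per-list counts below have the same background. Among 14 partners of the release channel, 5 were higher and 4 lower (rescaled 2 and 8). Hrc, the histidine-rich calcium-binding protein of the store, averaged 461 ± 76.9 TPM in CAC and 721 ± 67.1 TPM in Con (log2 -0.66 ± 0.08, limma adjusted p = 1.31e-09). Srl, the store's calcium-binding sarcalumenin, averaged 206 ± 56.0 TPM in CAC and 336 ± 36.2 TPM in Con (-0.74 ± 0.12, limma adjusted p = 9.51e-07). Both were lower in all 7 CAC hearts than in any Con heart.

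The 2 TRIC potassium channels of the store, which carry counter-ions during release, moved in opposite directions. Tmem38a averaged 223 ± 20.9 TPM in CAC and 353 ± 22.8 TPM in Con (log2 -0.67 ± 0.07, limma adjusted p = 7.23e-12), and Tmem38b averaged 47.5 ± 16.03 TPM in CAC and 11.3 ± 1.40 TPM in Con (1.87 ± 0.19, limma adjusted p = 8.38e-12). Neither gene's groups overlapped, and both kept their direction when rescaled (-0.88 and 1.66). Tmem38b was already higher at week 4, with 27.0 ± 10.1 TPM in CAC and 12.4 ± 1.32 TPM in Con (log2 1.00 ± 0.22, limma adjusted p = 0.00103).

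Of 9 tested pump regulators 4 were higher and 3 lower (rescaled 1 and 3). The largest difference was in Strit1, listed as Gm34302, which encodes the small membrane protein DWORF that relieves the pump of phospholamban. It averaged 91.6 ± 30.2 TPM in CAC, 391 ± 70.3 TPM in NCAC and 297 ± 24.7 TPM in Con at week 8 (CAC over Con log2 -1.77 ± 0.16, limma adjusted p = 6.98e-13), without overlap between CAC and either arm. At week 6 it averaged 123 ± 21.8 TPM in CAC and 323 ± 49.1 TPM in Con (log2 -1.39 ± 0.18, limma adjusted p = 9.14e-09). Also named by the rule were Ppp1r3a, a glycogen-targeting subunit of protein phosphatase 1 (log2 1.13), Sri (sorcin, 0.33; rescaled 0.13, not called) and Hax1 (0.24; rescaled 0.04, not called).

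Of 12 tested genes of the L-type channel list 4 were higher and 3 lower (rescaled 3 and 3). As written, that list also held the T-type pore genes Cacna1g and Cacna1h. Rrad, a small GTPase that holds the channel back, averaged 357 ± 131 TPM in CAC and 148 ± 67.6 TPM in Con at week 8 (log2 1.26 ± 0.32, limma adjusted p = 0.000654) and was called higher at weeks 4 and 6 too. Its relative Gem (log2 0.74) and the pore subunit Cacna1d (0.62) were higher too, and the accessory subunit Cacna2d1 was lower (-0.41 ± 0.09, limma adjusted p = 4.89e-05). Of the 2 tested paralogs, Cacna1s, the L-type pore of skeletal muscle, averaged 1.51 ± 0.469 TPM in CAC and 4.41 ± 0.784 TPM in Con (log2 -1.12 ± 0.11, limma adjusted p = 2.07e-12) and was lower in all 7 CAC hearts.

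**Figure D4:**
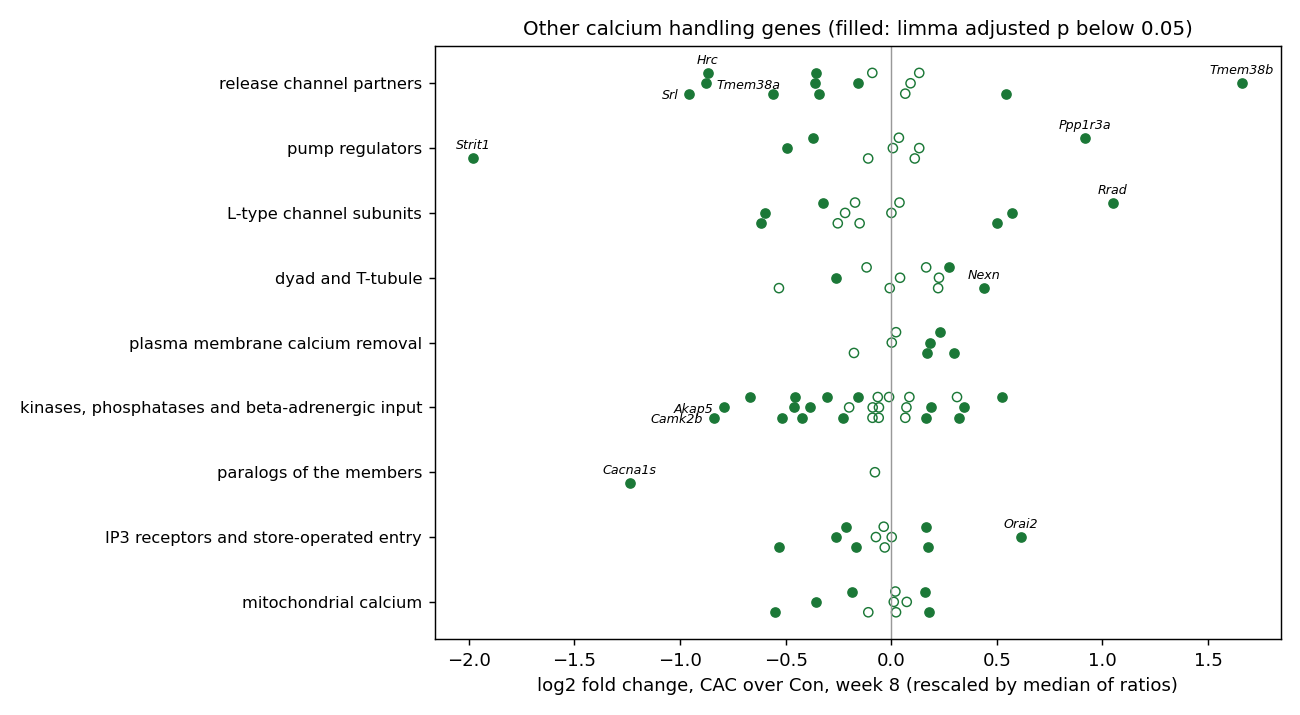
Rescaled log2 fold changes, CAC over Con at week 8, of the tested genes of 9 wider lists; each point is 1 gene, filled where the limma adjusted p was below 0.05. Strit1 lies lowest at -1.98 and Tmem38b highest at 1.66, and Rrad stands at 1.05.

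Among 10 dyad and T-tubule genes 6 were higher and none lower (rescaled 2 and 1), with Nexn, an actin-binding protein of the Z-disc, at log2 0.65 ± 0.08 (limma adjusted p = 3.75e-10), Cav3 at 0.49, Popdc2 at 0.38 and Jph1 at 0.41; Popdc2 and Jph1 were not called when rescaled. The list of calcium removal at the plasma membrane also held Slc8b1, a gene of the mitochondrial list as well. Of its 7 tested genes 6 were higher and none lower (rescaled 4 and none), among them the sodium pump subunit Atp1b1 (log2 0.51), the pump regulator Fxyd1 (0.38) and the calcium pump Atp2b4 (0.37). Of 27 kinase, phosphatase and beta-adrenergic genes 9 were higher and 7 lower (rescaled 5 and 11); the smallest p-values were those of Ppp1cc (log2 0.53), Ppp1ca (0.40), Ppp3ca (0.37) and Prkar2b (0.45). Of 11 genes of IP3 receptors and store-operated entry 3 were higher and 1 lower (rescaled 3 and 4), and the higher ones were Orai2 (log2 0.74), Orai1 (0.36) and Trpc1 (0.34). Of 10 mitochondrial calcium genes 6 were higher and 2 lower (rescaled 2 and 3), with Vdac2 at log2 0.39, Micu2 at 0.37 and Mcur1 at 0.28 (not called when rescaled), and Letm1 at -0.35.

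Across the 61 libraries Casq2 and Jph2 varied together (Pearson r = 0.82 on log2(TPM + 1)), as did Casq1 with Casq2 (0.73) and Atp2a2 with Cacna1c (0.84), while Jph2 and Atp2a2 did not (0.00). These are descriptions over libraries that share arm, week and scaling. Among 7417 candidate genes with a mean of at least 5 TPM, those most like Casq1 were Tesc (r = 0.86), Fam131a (0.85) and Enho (0.85). Those most like Casq2 were Ank1 (0.92), Tmem65 (0.90) and Sh3kbp1 (0.90), and those most like Jph2 were Srl (0.91), Qrsl1 (0.88) and Dynll2 (0.87).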

How the data were processed

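RNA was sequenced from stranded mRNA libraries of mouse hearts, per the labels' protocols, and mapped to mm10, per the submitters' processing notes; the aligner and counting tool are not given in the sources used here. Values in TPM were deposited by the authors for 62 libraries, so no read depth or counting interval is given. Con week 4 replicate 2 was left out by the rule for the members. Group means of log2(TPM + 1) were fitted over 61 libraries and 12 groups with limma 3.58.1 (trend) in R 4.3.3 for 18 contrasts, with a filter of 1 TPM in at least 5 libraries and a threshold of 0.05. The labels call the libraries biological replicates, and p-values reflect the spread among them. Ratios were tested in Python 3.11.15 with exact permutation. The fit was tested on simulated data.

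The 10 members and all lists were chosen with earlier results of these data known. Of each wider list, every gene called in CAC over Con at week 8 is named where 5 or fewer were called, otherwise the 4 with the smallest p, except for some genes that are not reported here; the rule also takes the 3 genes most correlated with each called member. Srl, Tmem38a, Tmem38b and Hrc are named by it. Arln, Erln and Mcub were not analysed here. Same-numbered libraries did not deviate together (mean r = -0.00474), so replicate numbers were not used as pairs. Alternatives were rescaling, another pseudocount and filter, array weights, the replicate block, the compared groups alone, Con week 4 replicate 2 kept, and each library left out.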

Additional observations from a re-analysis of the deposited data

Results flagged for a closer look

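Within the 120 combinations of member and group, 13 values, from 7 libraries, lay far from the rest of their group by Dixon's criterion, where chance gives about 1 in 20. Con week 2 replicate 1 gave 6 of them, all the lowest of the group, with Cacna1c at 24.7 TPM, Casq2 at 332 TPM, Pln at 3094 TPM, Ryr2 at 85.0 TPM, Slc8a1 at 20.0 TPM and Trdn at 49.7 TPM. NCAC week 6 replicate 2 was highest for Casq1 at 56.7 TPM and for Casq2 at 556 TPM. Con week 4 replicate 1 was highest for Casq2 at 544 TPM, and CAC week 6 replicate 2 lowest for Pln at 4335 TPM. Sln stood out at 0.0921 TPM in CAC week 4 replicate 2, 0.720 TPM in NCAC week 2 replicate 2 and 0.682 TPM in NCAC week 4 replicate 1, all near the bottom of the scale.

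The CAC minus Con difference itself changed between weeks 2 and 8 for 3 members in the limma fit: Casq1 by -1.22, Casq2 by -0.74 and Jph2 by -0.90 on the log2 scale. Each was called at week 8 and not at week 2.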

How the results depend on the processing

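TPM are shares of a library of unknown depth, so abundant transcripts move every member, and no counting error can be given. At week 8 Casq1, Casq2 and Jph2 were lower in CAC than in both other arms under every alternative run, and no single left-out library ended those calls; keeping Con week 4 replicate 2 ended 3 of the 6. The cause of the changes below was not tested. Counts are of members called, of 9 tested, and wider genes are counted in CAC over Con at week 8.

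Rescaling by median of ratios gave 0, 4 and 7 members for CAC over Con at weeks 2, 4 and 8 (1, 2 and 3 as deposited), 4 and 7 for CAC over NCAC at weeks 4 and 8 (2 and 4), 1 for NCAC over Con at week 8 (0), 1 and 7 for the change of CAC minus Con to weeks 6 and 8 (0 and 3), 3 for Con week 8 over week 2 (1), and 22 wider genes higher and 34 lower (41 and 21). The rescaled shares of all genes called, in the same order, were 0.399, 15.4 and 51.8%, 18 and 51.8%, 5.67%, 14 and 31.4%, and 6.05%. Rescaled, Atp2a2 turned to -0.153 against Con and -0.156 against NCAC at week 8, and Cacna1c to -0.159 against Con. Rescaled without Con week 2 replicate 1, chosen after seeing the data, CAC over Con gave 0 at week 2 and 8 at week 8, the change to week 8 gave 5, and wider genes 23 and 36; Atp2a2 was -0.153, Cacna1c -0.159 and Pln -0.126. Rescaled without CAC week 8 replicate 3, also chosen after seeing the data, the counts were 6, 8 for the change, and 22 and 40, with Pln at -0.160. Those 2 fits called 53 and 55.4% of all genes in CAC over Con at week 8, and 28.3 and 37.5% for the change. Leaving out mitochondrially encoded and haemoglobin genes gave 0 and 5 for CAC over Con at weeks 2 and 6, 4 for CAC over NCAC at week 4, 1 for NCAC over Con at week 8, 2 and 7 for the change to weeks 6 and 8, 3 for Con week 8 over week 2, and 25 and 32 wider genes; at week 6 Pln was -0.163, Cacna1c -0.00163 and Trdn -0.217. Without mitochondrially encoded and haemoglobin genes the shares of all genes called, in the same order, were 0.415 and 36.5%, 16.5%, 9.11%, 13.3 and 29.5%, and 7.23%. Scaling to cardiomyocyte markers, chosen after seeing the data, gave 7 members against Con and 8 against NCAC at week 8 and 73 and 7 wider genes, with Pln at 0.330 and Trdn at 0.275 against NCAC. On that scale 79.7% of all genes were called higher and 3.76% lower against Con, and 84.3 and 2.8% against NCAC.

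With Con week 4 replicate 2 kept, CAC over Con gave 0, 5, 1 and 1 at weeks 2, 4, 6 and 8 (at week 4, 57.6% of all genes were called higher), CAC over NCAC 1, 1 and 2 at weeks 4, 6 and 8, the change to week 8 gave 0, Con week 8 over week 2 gave 0, and wider genes 18 and 8. In the same order, 0, 59.2, 26.4 and 34.9% of all genes were called, then 4.95, 26.1 and 41.8%, 9.16% and 0%. Array weights gave 2 and 4 for CAC over NCAC at weeks 2 and 4, 1 for NCAC over Con at week 8 and 2 for Con week 8 over week 2. The shares of all genes called rose too, to 11, 18.3, 7.15 and 4.75%, against 0.59, 16.5, 0.71 and 1.36% without weights. A filter of 5 TPM gave 2 for CAC over Con at week 2, 2 for Con week 8 over week 2 and 13 wider genes lower; no filter gave 0 for CAC over Con at week 2 and ended the Casq1 call for the change to week 8 (limma adjusted p = 0.0655), and a pseudocount of 0.1 gave 2 for Con week 8 over week 2. Fitting only the groups compared gave 0 for CAC over Con at week 2, 1 for the change to week 6 and 0 for Con week 8 over week 2, and it ended the Jph2 call in CAC over NCAC at week 4 (limma adjusted p = 0.0695) while Ryr2 was gained there. The share of all genes called is not given for the fits of only the groups compared. In the comparisons named, the filter of 5 TPM called 3.44 and 2.55% of all genes, no filter 0.771 and 14.4%, and the pseudocount of 0.1 called 1.43%. Across these settings the share of all genes called moved too: in CAC over Con at week 8, 21.8 to 24.8% were called lower when rescaled, rescaled with the block or without mitochondrially encoded and haemoglobin genes, against 9.98% as deposited.

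Replicate numbers did not pair the libraries (mean r = -0.00474 for the same number, 0.000978 for other numbers; 3 of 61 libraries were nearest their own number). The replicate block gave 3 members for CAC over Con at week 8 (56.2% of all genes called) and 2 for the change to week 8 (22.6%). For that change Casq1 was -1.20 (limma adjusted p = 0.0609). Rescaled with the replicate block, CAC over Con gave 0, 4 and 5 at weeks 2, 4 and 8, CAC over NCAC 4 and 7 at weeks 4 and 8, NCAC over Con 1 at week 8, the change 1 and 7 to weeks 6 and 8, Con week 8 over week 2 gave 3, and wider genes 20 and 33; Atp2a2 was -0.189 against Con and -0.192 against NCAC. In the same order, that fit called 0.423, 13.9 and 46.3% of all genes, 17.9 and 47.3%, 5.32%, 13.7 and 27%, and 5.73%. The 2 ratios past the threshold were 0 with a pseudocount of 1 in both terms. They were also 0 with the replicate block, which flips the signs of same-numbered pairs. That test cannot decide, since so few pairs cannot give an exact p below 0.05.

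Leaving out 1 library at a time gave 0 to 2, 1 to 4, 2 to 3 and 3 to 4 members for CAC over Con at weeks 2, 4, 6 and 8, and 0, 1 to 3, 2 to 4 and 4 for CAC over NCAC. It gave 2 to 5 for the change to week 8, 3 to 4 for CAC and 0 to 3 for Con between weeks 2 and 8, and 35 to 49 wider genes higher and 15 to 22 lower. CAC over Con at week 4 gave 4 without CAC replicate 5, and CAC over NCAC at week 6 gave 2 without CAC replicate 1. The share of all genes called is not given for these fits, so the counts cannot be set against it.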
